A study of Homo sapiens with 20 samples.

Results

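The overexpression-only U2AF2 sites were the stretches of RNA that carried a U2AF2 iCLIP peak in all 3 libraries from cells overexpressing hnRNPA1 and in none of the 3 libraries from control cells. iCLIP crosslinks a protein to RNA in living cells and sequences the bound fragments. Peaks of at least 6 reads were joined across the 6 U2AF2 libraries when they overlapped by 1 nt or more on the same strand, which gave 226074 merged sites. Of these, 34984 (15.5%) followed the overexpression-only pattern. The sites were chosen by the U2AF2 peaks themselves, so their U2AF2 values are a description and carry no test.

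The cells were TREX FLP-In 293T cells, a human embryonic kidney line with a tetracycline-inducible integration site. The overexpression line carried an inducible T7-tagged hnRNPA1 and was selected with hygromycin, and the control line was selected with blasticidin and zeocin; selection lasted 3 days in each. All cells, control cells included, were under tetracycline for 24 h. iCLIP used nuclear extracts and was done for hnRNPA1 (2 overexpression and 2 control libraries), U2AF2 (3 and 3) and SRSF1 (3 and 3), and RNA-seq used 2 overexpression and 2 control samples. The labels do not say whether replicates came from separate cultures, so the spread between them may be technical. Hygromycin selection and the transgene went together, so their effects cannot be told apart. The level of the transgene's RNA was not analysed here.

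U2AF2 is the large subunit of the factor that binds the pyrimidine tract upstream of a 3′ splice site and helps recruit the U2 snRNP to the branch point. hnRNPA1 is an abundant nuclear protein that binds RNA through its RNA recognition motifs and often acts as a splicing silencer. SRSF1 belongs to the SR proteins, which bind exonic sequences and often favour exon inclusion.

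The depth behind the sites was unequal. Reads in peaks numbered 2259759 to 3136466 in the U2AF2 overexpression libraries, against 692837 to 1145531 in the U2AF2 control libraries. The order was turned round for hnRNPA1, with 540256 and 566544 reads in the overexpression libraries, against 2480791 and 2940834 in the control libraries. SRSF1 had 170719 to 321129 reads in the overexpression libraries, against 121534 to 168204 in the control libraries. The U2AF2 conditions also stood apart at equal numbers of peaks. Among the 7000 peaks with most reads of each library, a U2AF2 overexpression library shared a median of 68.9% with another U2AF2 overexpression library and 13.6% with a U2AF2 control library. It shared more with the hnRNPA1 control libraries (median 25.6%) and the SRSF1 overexpression libraries (34.8%) than with the U2AF2 control libraries, and a median of 2.52% with the hnRNPA1 overexpression libraries, with which a U2AF2 control library shared 20.5%. The cause was not tested. Groups are called as the libraries are labelled, and whether a difference between the libraries other than hnRNPA1 level sets these shares was not tested; such a difference would bear on every result for the overexpression-only sites. U2AF2 control libraries shared a median of 71.9% among themselves. The third U2AF2 overexpression file listed peaks from 3 reads and tended to split them, and the common minimum of 6 reads was applied to it as to the others.

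**Figure D1:**
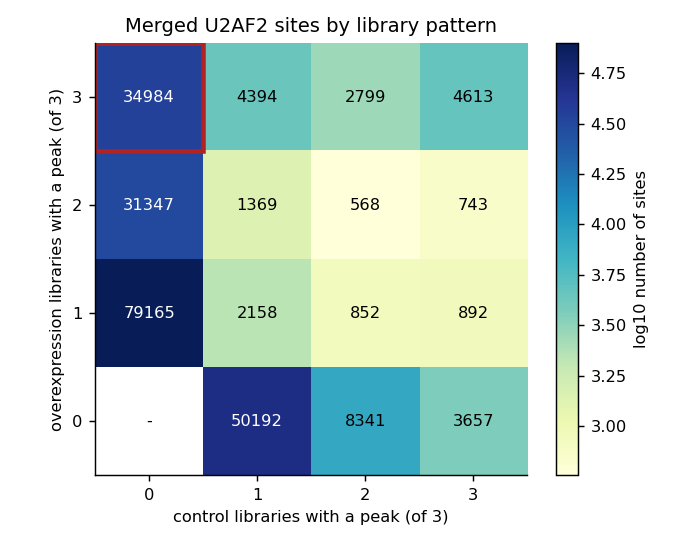
Number of merged U2AF2 sites by the number of overexpression libraries (vertical axis) and control libraries (horizontal axis) with a peak of at least 6 reads; colour is the log10 number of sites. The boxed cell holds the 34984 overexpression-only sites, against 4613 sites with a peak in all 6 libraries and 3657 with a peak in all 3 control libraries only.

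The site pattern was lopsided. Sites with a peak in no overexpression library and all 3 control libraries numbered 3657 (1.62% of all sites), and 4613 sites had a peak in all 6 libraries. A further 4394 sites missed the rule by a peak in 1 control library. When the minimum was raised in proportion to the depth of each U2AF2 library, 6893 sites had a peak in the overexpression libraries only, against 4869 in the control libraries only and 3238 in all 6.

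Most overexpression-only sites were narrow and lightly read. Their median width was 73 nt, against 146 nt for the sites present in all 6 libraries. Median reads per site were 15, 14 and 16 in the 3 overexpression libraries. At least 10 reads in every overexpression library were found at 20245 sites (57.9%), at least 50 at 1775 sites (5.07%) and at least 100 at 301 sites. As a description, log2 reads per 1000000 peak reads (RPM) had Pearson correlations of 0.82 to 0.83 between the 3 libraries across the 34984 sites. The Spearman rank correlations were 0.74 to 0.76. The sites are not independent replicates. The minimum of 6 reads corresponded to 8.66, 7.76 and 5.24 RPM in the control libraries. The mean over the overexpression libraries lay above the highest of these levels at 9609 sites (27.5%) and below the lowest at 15885 (45.4%), where no control library could list a peak of equal relative height.

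**Figure D2:**
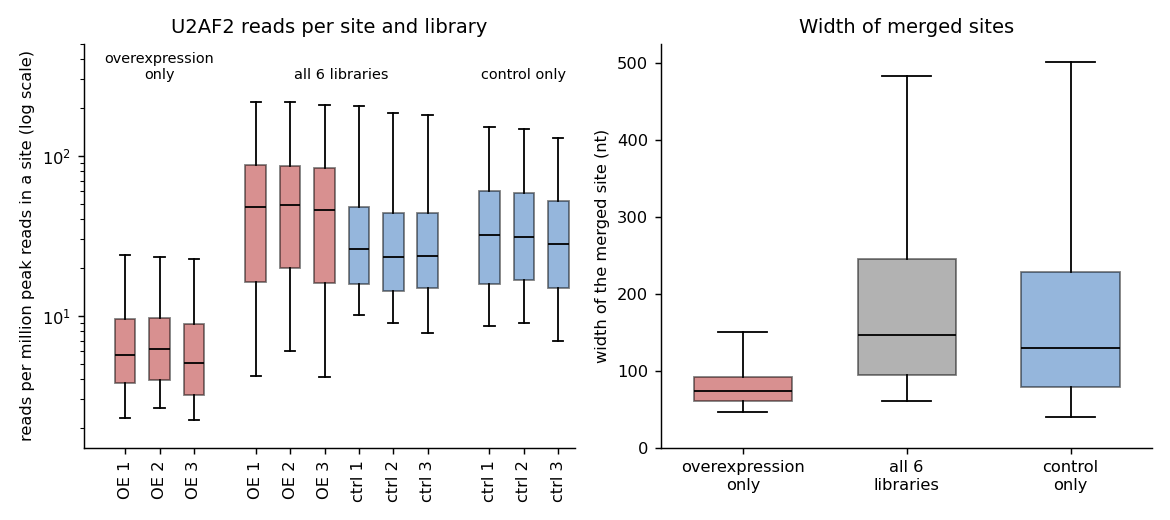
Left, U2AF2 RPM in each site (log scale) by library, for sites with a peak in the overexpression libraries only, in all 6 libraries and in the control libraries only; OE is overexpression and ctrl control. Right, merged site width in nt. Boxes span the quartiles, the line is the median and whiskers reach the percentiles 5 and 95. The overexpression-only sites have medians of 5.10 to 6.20 RPM and a median width of 73 nt.

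The site with the highest U2AF2 level lay in MALAT1, a long non-coding RNA of nuclear speckles, at chr11:65270741-65270795 (hg19, plus strand). It held 452, 392 and 552 reads in the overexpression libraries and no listed peak in the 3 control libraries. No hnRNPA1 library had a peak there, and SRSF1 had 36 and 54 reads in control libraries 1 and 2 only. The next sites lay in KPNA6, an importin subunit gene, at chr1:32641110-32641402 (509, 358 and 467 reads) and in ANKRD10 at chr13:111551109-111551260 (424, 375 and 533 reads). At KPNA6 hnRNPA1 had no peak in the overexpression libraries, against 49 and 79 reads in the control libraries, and at ANKRD10 none with overexpression, against 96 and 84 in control. The hnRNPA1 control libraries held more reads in all, so these counts are not on an equal scale.

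A site in NEAT1, the RNA scaffold of paraspeckles, at chr11:65210211-65210360 held 393, 362 and 457 reads. The site in KHDC4 at chr1:155894834-155894991, a gene also known as BLOM7 whose protein takes part in splicing, held 399, 295 and 387 reads. One in RPL7L1 at chr6:42855083-42855328 held 340, 293 and 374 reads, and one in the X-inactivation regulator RNA JPX at chrX:73166964-73167091 held 323, 283 and 360 reads. The remaining 3 of the 10 highest lay in SEPTIN7P2, GTF2H2C and the overlapping RASA4 and POLR2J2 annotations, which have near-identical copies elsewhere, so the placement of their reads is uncertain. Of the 10 sites, 7 had hnRNPA1 peaks in control libraries only, and MALAT1 and JPX had none in any. The hnRNPA1 control libraries were the deeper ones. Over all overexpression-only sites with 50 or more reads in every overexpression library, hnRNPA1 peaks overlapped 65.5% and 64.3% in control, against 2.76% and 5.97% with overexpression.

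At the edge of the rule, sites in CLIC4, SPATA6 and ZFYVE9 had exactly 6 reads in each overexpression library, as did 70 sites in all. Just outside it, the U4 snRNA gene RNU4-2 had 904, 934 and 732 reads in the overexpression libraries and a peak of 51 reads in control library 2. A site in GUSBP3 had 482, 613 and 422 reads in the overexpression libraries, against 37 reads in control library 3 alone. A site in the leptin receptor gene LEPR, which shares its start with LEPROT, had 480, 366 and 351 reads in the overexpression libraries, against 15 reads in control library 1 alone. These sites were higher than most that the rule admitted.

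The sites spread over 9077 of the 16278 gene IDs with any U2AF2 site. Protein-coding genes, named by GENCODE 29 through their IDs, held 90.2% of them. A single site was found in 3444 genes, at least 3 in 3982 and at least 10 in 894. In 1369 of the genes with such a site no control library had a peak of at least 6 reads under the same gene ID, and the control libraries were shallower. The strands were even, with 17688 sites on plus and 17296 on minus. A site of any control library lay within 1000 nt of 39.5% of the overexpression-only sites.

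SLIT2, a secreted ligand of Robo receptors in axon guidance, had most of them, 139 of its 580 U2AF2 sites, along with 8 sites present in all 6 libraries and 35 found in the control libraries only. The low-density lipoprotein receptor relative LRP1B had 83 of 633 sites, and ERC1, a scaffold protein of the cell cortex, had 80 of 332. EIF4G3, a translation initiation scaffold, had 77 of 311 sites, and the ephrin ligand EFNA5 had 75 of 367. The receptor tyrosine kinase ERBB4 followed with 64 of 606 sites, the transcription factor NFIA with 54 of 376, POLR2J2 with 54 of 172, BIRC6 with 51 of 219 and EXT1 with 50 of 239. The U2AF2 sites of these genes spread over 132 kb in POLR2J2 to 1809 kb in LRP1B. Per 100 kb of that stretch the density ran between 4.59 sites in LRP1B and 41.0 sites in POLR2J2. Sites under the POLR2J2 ID lie in part under the overlapping RASA4 annotation, with near-identical copies elsewhere, so their number and density are uncertain.

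Among 16 gene lists, the overexpression-only share of U2AF2 sites ran between 12.1% and 18.8%, beside 15.5% over all genes. Genes for 3′ splice site and U2 factors had 143 such sites of 761 (18.8%), in 20 of 25 genes with any site. In that list RBM39, a U2AF2-related splicing factor, had 26, the RNA helicase DDX46 had 24 and the U2 component SF3B3 had 22. Ubiquitin ligases and adaptors had 514 of 2732 sites (18.8%), with 44 in HUWE1 besides the 51 in BIRC6. Nuclear pore and transport genes had 425 of 2288 (18.6%), with 39 in the exportin XPO1. DNA repair genes had 480 of 2661, with 48 in PRKDC, the catalytic subunit of DNA-dependent protein kinase. The hnRNP genes were at the overall share, with 170 of 1117 sites (15.2%), and the SR protein genes had 78 of 566 (13.8%). Nuclear long non-coding RNAs had the lowest share, 85 of 702 sites (12.1%), of which FTX held 24 and NEAT1 held 23. These shares stayed near the overall one, and no list was tested. The genes of the 3 proteins themselves held few: 6 of 37 sites in SRSF1, 3 of 23 in U2AF2 and 3 of 16 in HNRNPA1.

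The 7SL-family genes stood apart in the small-RNA annotations, a family chosen after its values were seen. 7SL RNA is the RNA of the signal recognition particle, and its many genomic copies (the RN7SL pseudogenes) share their origin with Alu elements. Of 56 merged U2AF2 sites in these genes, 24 (42.9%) followed the overexpression-only pattern, beside 15.5% over all sites. None was present in all 6 libraries or in the 3 control libraries only. Those classes held 4613 and 3657 of all 226074 sites, so their absence among 56 sites says little. By the gene IDs of the first 2 overexpression libraries alone, 20 of the 24 lay in family genes. The others were placed there by the third overexpression file, and the total of 56 was not recounted in this way. With the depth-scaled minimum the family had 6 sites in the pattern. By contrast, 2 of 185 sites in snoRNA genes (1.08%) and 3 of 64 in snRNA genes (4.69%) were overexpression-only, while 61 snoRNA-gene sites were present in all 6 libraries.

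RN7SL582P, inside LSAMP at chr3:116301599-116301671 (hg19, minus strand), held 192, 158 and 232 U2AF2 reads in the overexpression libraries and no listed peak in the control libraries. RN7SL454P, inside DNAH17, held 182, 124 and 171 reads. RN7SL237P held 88, 78 and 98 reads. Reads from this repeated family can be placed on the wrong copy, and the authors' repeat filter could have removed others.

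Summed over the family, U2AF2 peaks held 227, 223 and 267 RPM in the overexpression libraries, against 8.66, 0 and 6.98 in the control libraries. The sums came from 31, 30 and 45 peaks with overexpression, against 1 peak of 6 reads, none and 1 peak of 8 reads in control. In the shallower control libraries 6 reads were 8.66, 7.76 and 5.24 RPM, so lower peaks went unlisted and the size of the contrast depends on depth. The family was chosen after these U2AF2 values were seen, so their order is a description. The hnRNPA1 libraries went the other way, with 0 and 26.5 in the overexpression libraries and 36.0 and 46.8 in the control libraries; the hnRNPA1 control libraries were the deeper ones. SRSF1 had at most 1 family peak in any library. Of the 24 sites, 14 had an hnRNPA1 peak in at least 1 library and 2 had an SRSF1 peak. RN7SL582P, for example, had no hnRNPA1 peak in the overexpression libraries, against 15 and 16 reads in the control libraries.

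**Figure D3:**
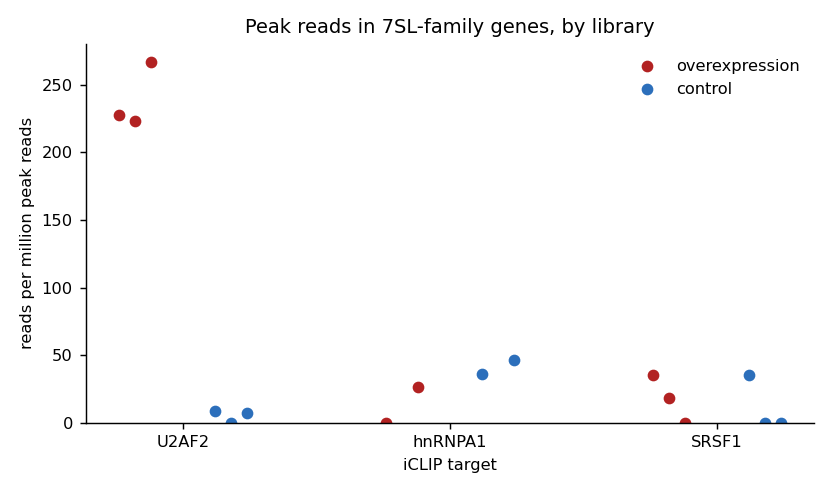
RPM in peaks of 7SL-family genes (vertical axis), 1 point per library, by iCLIP target. The U2AF2 overexpression libraries lie at 223 to 267, and the highest of the other libraries lies at 46.8.

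Overexpression-only sites were also found over 4 microRNA genes. They were 4 of 17 merged sites in such genes (23.5%), beside 15.5% over all sites, and 1 of the 17 was present in all 6 libraries. By the gene IDs of the first 2 overexpression libraries alone, 3 of the 4 lay in microRNA genes. The mature sequences (RefSeq, GRCh38.p14) are shown to identify the microRNAs, with the seed, bases 2 to 8, in capitals.
hsa-miR-320b: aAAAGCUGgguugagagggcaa
hsa-miR-196a-5p: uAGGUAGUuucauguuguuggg
hsa-miR-221-3p: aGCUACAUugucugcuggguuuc
hsa-miR-3944-5p: uGUGCAGCaggccaaccgaga
No seed was shared between them. The site at MIR320B2, inside NVL, at chr1:224444739-224444808 held 70, 75 and 95 reads in the overexpression libraries. MIR196A2, in the HOXC cluster at chr12:54385544-54385605, held 30, 19 and 34 reads. MIR221, in MIR222HG, held 19, 12 and 22 reads, and MIR3944, in ECHS1, held 15, 7 and 36 reads. None had a listed peak in a U2AF2 control library.

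The overlap with hnRNPA1 peaks asked how often hnRNPA1 itself lay at these sites with and without its overexpression, in libraries the rule did not use. hnRNPA1 peaks overlapped 1.05% and 1.67% of the overexpression-only sites in the overexpression libraries, against 19.2% and 17.7% in the control libraries. The means were 1.36% ± 0.437 with overexpression and 18.4% ± 1.09 in control (SD, n = 2 each), and the libraries of the conditions did not overlap. The exact two-sided permutation p was 0.333, the smallest that 2 against 2 allows (0.444 adjusted over 8 tests). The 95% Wilson interval of the first overexpression library was 0.953% to 1.17%, which covers counting error only. The hnRNPA1 control libraries were the deeper ones, and with a minimum of reads scaled to depth the shares were 1.05% and 1.29% with overexpression and 2.45% and 2.84% in control. Raising the U2AF2 minimum instead chose the sites anew, and a site whose control peaks fell under the minimum could then enter. The 6893 sites at the depth-scaled U2AF2 minimum had hnRNPA1 peaks at 1.86% and 4.11% with overexpression and 52.7% and 50.2% in control. The 13690 sites at a U2AF2 minimum of 20 reads had them at 4.0% and 8.19% with overexpression and 61.9% and 59.9% in control. Of the 34984 sites of the main rule, 8330 had at least 20 reads in every overexpression library. Main-rule sites with 20 to 49 reads in their lowest overexpression library were overlapped at 35.4% and 32.8% in control.

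Sites found in the U2AF2 control libraries only also had lower hnRNPA1 shares with overexpression at the common minimum. These were 20.1% and 20.2%, against 43.9% and 40.4% in the hnRNPA1 control libraries. Sites present in all 6 U2AF2 libraries showed far more hnRNPA1 peaks than the overexpression-only sites. Their shares were 27.8% and 39.7% in the overexpression libraries and 91.0% and 89.8% in the control libraries. The log2 ratio of the overexpression-only share to the share at these common sites averaged -3.47 over the 4 libraries and was negative in each (exact sign-flip p = 0.13, the smallest possible). The common sites were wider, 146 nt at the median against 73 nt. They were also more heavily read, with a median of 47.8 RPM over the overexpression libraries, against 5.61 RPM at the overexpression-only sites. Overlap grew with reads, as given below, so the sign-flip test cannot tell the site pattern from site strength. The ratio was -4.64 ± 0.106 in the overexpression libraries and -2.29 ± 0.0726 in the control libraries (SD, n = 2 each), a difference of -2.35 (exact permutation p = 0.333). That difference was 0.0195 with the depth-scaled hnRNPA1 minimum (exact permutation p = 1).

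**Figure D4:**
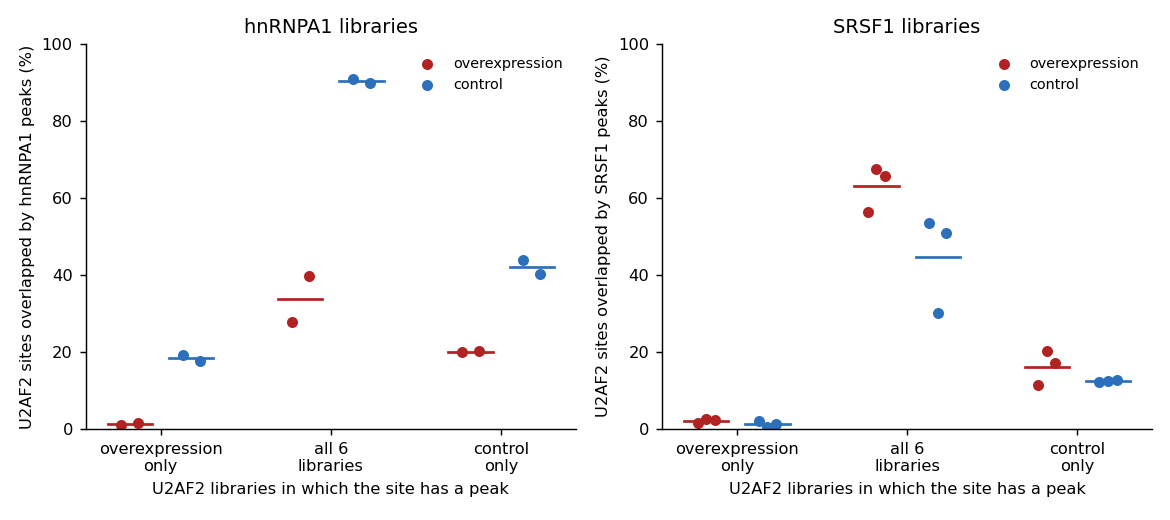
Percent of U2AF2 sites overlapped by hnRNPA1 peaks (left) or SRSF1 peaks (right), 1 point per library with the mean as a line, for the 3 classes of U2AF2 sites. At overexpression-only sites the hnRNPA1 shares are 1.05% and 1.67% with overexpression and 19.2% and 17.7% in control, and the highest SRSF1 share is 2.58%.

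The position of the hnRNPA1 peaks was compared within each library, which sets centre and flank against the same depth. In the overexpression libraries an hnRNPA1 peak covered the centre of 0.463% and 0.866% of the overexpression-only sites, against a mean of 1.16% and 1.15% at 500 to 1000 nt from it. In the control libraries it covered the centre of 15.4% and 14.1%, against 3.39% and 3.12% in the flanks. The centre-to-flank ratio was thus 0.401 and 0.750 with overexpression and 4.56 and 4.53 in control (exact permutation p = 0.333; 0.476 adjusted over 10 tests). hnRNPA1 peaks were thus less frequent at the site than around it in both overexpression libraries and more frequent at the site in both control libraries. With the depth-scaled hnRNPA1 minimum the ratios were 0.401 and 0.626 with overexpression and 1.11 and 1.29 in control. At the 13690 sites chosen anew with a U2AF2 minimum of 20 reads the ratio was above 1 in every library. It was 1.64 and 3.41 with overexpression and 12.7 and 13 in control. At the sites common to all 6 libraries it was 5.62 and 8.72 with overexpression and 10.0 and 10.7 in control. This measure was added after the values were seen.

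**Figure D5:**
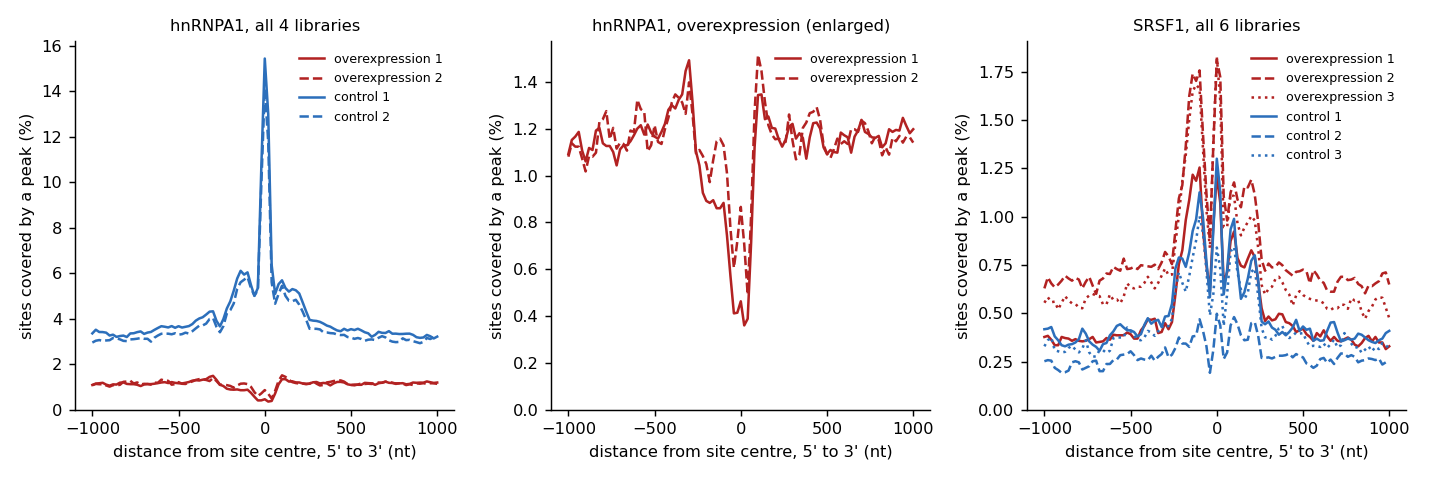
Percent of the 34984 overexpression-only sites covered by a peak at each distance from the site centre (nt, 5′ to 3′), 1 line per library; the middle panel enlarges the hnRNPA1 overexpression libraries. hnRNPA1 coverage at the centre is 0.463% and 0.866% with overexpression and 15.4% and 14.1% in control.

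The overlap grew with the U2AF2 level of the site. At sites whose lowest overexpression library had 6 to 9 reads, hnRNPA1 peaks overlapped 0.678% and 0.936% in the overexpression libraries and 8.96% and 7.80% in the control libraries. At sites with 50 or more reads in every overexpression library, they overlapped 2.76% and 5.97% in the overexpression libraries and 65.5% and 64.3% in the control libraries. These strongest sites were 104 nt wide at the median, against 68 nt for the weakest. Of all overexpression-only sites, 26015 (74.4%) had no hnRNPA1 peak in any of the 4 libraries. A peak in both control libraries and no overexpression library was found at 3582 sites (10.2%), and the opposite pattern at 12. These counts used the common minimum of 6 reads, at which the deeper hnRNPA1 control libraries list more peaks. They were not repeated with the depth-scaled minimum or over all U2AF2 sites.

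The percent of all hnRNPA1 peak reads that lay in overexpression-only sites was 0.952% and 1.35% in the overexpression libraries, against 4.36% and 4.49% in the control libraries. The means, 1.15% ± 0.283 with overexpression and 4.43% ± 0.0951 in control (SD, n = 2 each), did not overlap by library (exact permutation p = 0.333). With the depth-scaled minimum the difference narrowed to -1.88 percentage points.

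At 126 sites all 4 hnRNPA1 libraries had a peak. The highest lay in SLIT2 at chr4:20307589-20307718, with 113 and 137 hnRNPA1 reads in the overexpression libraries and 156 and 136 in the control libraries, beside 29, 30 and 19 U2AF2 reads with overexpression. A neighbouring pair of sites in TMEM242 shared 1 hnRNPA1 peak in each overexpression library, of 37 and 164 reads, against 71 and 62 reads in the control libraries at the first of the pair. In the SRSF1 gene itself, a site at chr17:56079127-56079169 had 81 and 71 hnRNPA1 reads with overexpression and 111 and 109 in control, beside 67, 81 and 76 U2AF2 reads with overexpression. ERBB4 had 27 and 80 hnRNPA1 reads with overexpression, against 237 and 274 in control, and GPI, a glycolytic enzyme gene, had 73 and 70 with overexpression, against 141 and 126 in control. The others among the 8 highest lay in NPIPB4 and RASA4, members of duplicated families. Since the control libraries held more reads in all, equal counts are larger shares of the overexpression libraries.

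SRSF1 peaks were scarce at the overexpression-only sites in both conditions. They overlapped 1.65%, 2.58% and 2.5% of the sites in the overexpression libraries, against 2.06%, 0.692% and 1.5% in the control libraries. The means were 2.24% ± 0.518 with overexpression and 1.42% ± 0.686 in control (SD, n = 3 each), with overlapping libraries (exact permutation p = 0.2; 0.444 adjusted over 8 tests). With the depth-scaled SRSF1 minimum the sign turned, with 0.412% to 0.626% in the overexpression libraries and 0.692% to 0.798% in the control libraries (exact permutation p = 0.1). The difference of 0.827 percentage points was 0.465 without control replicate 2, 3.52 with the U2AF2 minimum scaled to depth and 6.93 with a U2AF2 minimum of 20 reads (exact permutation p = 0.1 for the last pair, the smallest that 3 against 3 allows). The last pair of settings chose the sites anew, so sites with weaker control peaks could enter. The percent of SRSF1 peak reads in these sites was 3.46% ± 0.249 with overexpression and 3.09% ± 0.965 in control (SD, n = 3 each; exact permutation p = 0.6).

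At the sites common to all 6 U2AF2 libraries SRSF1 peaks were far more frequent, at 56.3%, 67.4% and 65.6% in the overexpression libraries and 53.4%, 30.1% and 51.0% in the control libraries. The log2 ratio of the overexpression-only share to the common share averaged -4.96 and was negative in 6 of 6 libraries (exact sign-flip p = 0.031, the smallest that 6 libraries allow, and 0.25 adjusted over 8 tests). Since the common sites were wider and more heavily read, this test too cannot tell the site pattern from site strength. The ratio differed by 0.24 between conditions (exact permutation p = 0.7). Around the site centre, the centre-to-flank ratio was 2.69 to 3.30 with overexpression and 2.00 to 3.42 in control (exact permutation p = 0.4).

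Only 17 overexpression-only sites had SRSF1 peaks in all 6 SRSF1 libraries, and 93.0% had none in any. The highest of them lay in MALAT1 at chr11:65266533-65266583, with 92, 143 and 95 SRSF1 reads in the overexpression libraries and 33, 105 and 37 in the control libraries. That site had 158, 141 and 157 U2AF2 reads with overexpression. A site in the RNA helicase gene DDX5 had 28, 38 and 27 SRSF1 reads with overexpression and 44, 32 and 49 in control. A site in the syntaxin gene STX16 had 17, 33 and 56 with overexpression and 39, 32 and 32 in control. Of 2 such sites in HNRNPU, a nuclear matrix-associated hnRNP, the higher had 19, 36 and 40 with overexpression and 26, 13 and 24 in control. SRSF1 peaks in all 3 overexpression libraries and no control library were found at 47 sites, and the opposite at 17. The SRSF1 overexpression libraries held more reads in peaks than the control libraries, and these counts used the common minimum of 6 reads. They were not repeated with the depth-scaled minimum or over all U2AF2 sites.

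Over whole genes, hnRNPA1 signal was compared as reads in peaks per gene after scaling each library by the median of its gene-wise ratios, for genes with a peak in every hnRNPA1 library. By limma with Benjamini-Hochberg adjustment, 545 of 5738 genes (9.5%) were higher with overexpression and 478 (8.33%) were lower at an adjusted p under 0.05. With total reads in peaks as the scale, which moved the median log2 change of all genes to -0.31, the counts were 316 higher and 933 lower. The 1023 calls became 1677 without overexpression replicate 2, 547 without control replicate 1 and 616 without control replicate 2. Among the 875 tested genes with at least 10 overexpression-only sites, 226 (25.8%) were higher and 33 (3.77%) lower, with a median log2 change of 0.44. On the total-reads scale 133 were higher and 90 lower, with a median of 0.11. Among the 985 tested genes without such a site, 70 (7.11%) were higher and 80 (8.12%) lower. The genes with at least 10 sites had U2AF2 sites over a median of 103 kb, against 9.88 kb for those without, and the part of length in the difference was not tested.

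SLIT2 headed the genes that rose, with 37948 and 39124 normalised hnRNPA1 reads in the overexpression libraries and 9811 and 9551 in the control libraries (log2 change 1.99 ± 0.0634 SE, limma adjusted p = 4.69e-05). Within SLIT2 hnRNPA1 peaks overlapped 8 and 9 of the 139 overexpression-only U2AF2 sites in the overexpression libraries, against 26 and 28 in the control libraries. LRP1B had 27720 and 22203 normalised hnRNPA1 reads with overexpression and 6241 and 5115 in control (log2 change 2.13). Of its 83 sites, 9 and 6 were overlapped in the overexpression libraries and 16 and 14 in the control libraries. With the hnRNPA1 minimum scaled to depth the overlapped sites numbered 8 and 9 with overexpression and 13 and 10 in control in SLIT2, and 9 and 5 with overexpression and 8 and 6 in control in LRP1B. In ERC1 they numbered 5 and 8 with overexpression and 5 and 7 in control at the common minimum, and 5 and 8 with overexpression and none in control at the scaled minimum.

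NEAT1 rose by a log2 change of 2.04, TTC28 by 1.67, MALAT1 by 1.16 and LRRTM4, a synaptic adhesion gene, by 3.11, with limma adjusted p between 0.000227 and 0.00164. Of the 10 genes with most sites, ERC1, BIRC6, ERBB4, EFNA5 and EXT1 were also called higher, with log2 changes between 0.45 in EXT1 and 1.03 in BIRC6. On the total-reads scale ERC1 (0.27) and BIRC6 (0.71) were still called higher by limma, while ERBB4 (0.18), EFNA5 (0.18) and EXT1 (0.13) were not. EIF4G3 (0.15), NFIA (0.30) and POLR2J2 (-0.27) did not pass the test, and on the total-reads scale EIF4G3 and NFIA had changes of -0.17 and -0.03 and POLR2J2 was called lower (-0.60). Among genes with at least 3 sites, the transcription factor RUNX1 had the lowest adjusted p of the genes with a symbol that fell, to 16.5 and 22.3 normalised reads with overexpression, against 321 and 307 in control (log2 change -3.96 ± 0.359 SE, limma adjusted p = 0.0033). ITSN1, an endocytic scaffold, fell by 2.56 on the log2 scale, and TFDP2, a partner of E2F factors, fell by 2.69. MID1, a ubiquitin ligase of microtubules, had a log2 change of -2.30. The IDs ENSG00000250349 and ENSG00000250588, which have no symbol in the tables used, also fell. HNRNPA1 itself had 541 and 673 normalised reads with overexpression and 522 and 525 in control (log2 change 0.20, and -0.12 on the total-reads scale), and neither it nor U2AF2 (0.51) nor SRSF1 (0.39) passed.

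By list, 13 of 50 tested DNA repair genes rose in hnRNPA1 signal and 1 fell, beside 9.5% higher and 8.33% lower over all genes, with a median log2 change of 0.65. On the total-reads scale 8 rose and 4 fell, with a median of 0.33. Of 49 cell cycle and mitosis genes 12 rose and 1 fell, with a median of 0.64, and on the total-reads scale 6 rose and 2 fell, with a median of 0.32. Of 44 nuclear pore and transport genes 7 rose and 1 fell, and on the total-reads scale 4 rose and 2 fell. Of 14 genes for 3′ splice site and U2 factors 3 rose and 2 fell, with a median of 0.25, against -0.08 on the total-reads scale. Of 23 hnRNP genes 3 rose and none fell at the adjusted threshold, but on the total-reads scale 2 rose and 4 fell. Of 80 solute carrier genes 2 rose and 12 fell, with a median of -0.56, and on the total-reads scale 1 rose and 21 fell. The median over all 5738 genes was 0.01, and -0.31 on the total-reads scale.

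SRSF1 signal over genes was tested on fewer genes: 77 of 1845 genes (4.17%) were higher with overexpression and 48 (2.6%) lower by the same limma test. Genes with at least 3 overexpression-only U2AF2 sites gave 32 higher and 32 lower of 990 (3.23% each), and genes without such a site gave 31 higher (8.01%) and 7 lower (1.81%) of 387. The 125 calls became 31 and 37 without overexpression replicates 2 and 3, 18 without control replicate 1 and 207 without control replicate 2. With total reads as the scale 64 were higher and 96 lower. LRP1B had the largest rise among genes named by the rule, with 329, 971 and 649 normalised SRSF1 reads in the overexpression libraries and 17.8, 9.98 and 7.57 in the control libraries (log2 change 5.62 ± 0.456 SE, limma adjusted p = 0.000126). TMEM242 (log2 change 2.37), PCBD2 (2.51), the snoRNA host GAS5 (1.47), DST (2.76), a large cytoskeletal linker, and MALAT1 (0.73) were also higher. Of 16 tested snoRNA host genes 6 rose and none fell, with a median log2 change of 0.79 (5 and none, with a median of 0.59, on the total-reads scale), and of 50 C2H2 zinc finger genes none rose and 4 fell.

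U2AF1, the small subunit that pairs with U2AF2 and reads the AG of the 3′ splice site, fell in SRSF1 signal to 32.9, 25.6 and 38.4 normalised reads with overexpression, against 184, 260 and 102 in control (log2 change -2.38 ± 0.406 SE, limma adjusted p = 0.00911). SRPK1, a kinase of SR proteins, fell to 14.2, 28.2 and 25.6, against 111, 223 and 115 in control (log2 change -2.65). ZNF529, MAP3K21, GINS1 and TENT4A were also lower, with log2 changes between -2.05 and -3.11. RNA levels per gene were not analysed here, so peak reads and transcript abundance cannot be told apart.

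Skipped-exon events from the RNA-seq were taken as the authors gave them, with the share of transcripts that include the exon (PSI). By its label, the authors' list held only events past a minimum difference and a minimum Bayes factor. The events were thus selected for a difference and do not stand for skipped exons in general. Of 251 deposited events, 114 had at least 1 overexpression-only U2AF2 site between the flanking exons' outer ends. Their site counts summed to 311, where a site inside several events was counted once for each event. Some events share a gene and span, so the 114 are not separate loci. Inclusion was lower with overexpression in 70 of them (61.4%) and higher in 44, and it was lower in 62.0% of the 137 events without such a site. The span of the event was 9.26 kb at the median with a site, against 3.60 kb without.

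In CBY1 inclusion was 0.22 in overexpression sample 2 and 0.77 in control sample 2, with no value in the others. UBXN4 had 3 sites and inclusion of 0.14 and 0.40 with overexpression, against 0.82 in control sample 2. TTC17, with 3 sites, had 0.32 and 0.39 with overexpression, against 0.85 in control sample 2. SGK3, a kinase, went the other way, with 0.73 and 0.72 with overexpression, against 0.23 in control sample 2. ODF2L had 0.22 and 0.72 in overexpression and control sample 2, and the DECR2 and NME4 event had 0.10 and 0.29 with overexpression, against 0.65 in control sample 2. SPIN1 (0.74 with overexpression, 0.25 in control) and NEPRO (0.74 and 0.26) had higher inclusion with overexpression, in 1 sample each. Each of these largest differences therefore rested on a single control sample. Among events with all 4 values, chosen after the values were seen, the SR protein gene SRSF6 had 0.25 and 0.24 with overexpression and 0.74 and 0.61 in control, with 1 overexpression-only site. RBM39 had 0.15 and 0.15 with overexpression and 0.72 and 0.44 in control. Its event held 1 overexpression-only site, 2 sites present in all 6 libraries and 3 found in the control libraries only.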

How the data were processed

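Peak lists for 16 iCLIP libraries were used as deposited. Per the file headers, the authors aligned reads with TopHat to hg19, filtered repeats and called peaks per library with CLIPper, run on pre-mRNA; the submitters' processing notes also name Bowtie2. Versions are not given in the sources used here. Each deposited peak carries a gene ID, a read count and a p-value. The authors' PSI values (a fraction from 0 to 1) come from their deposited MISO table of skipped exons, labelled as filtered on a minimum difference and Bayes factor.

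Peaks listed under several genes were counted once. Peaks of at least 6 reads were merged by strand and overlap (1 nt). Read sums were scaled to 1000000 peak reads per library. Shares per library were compared by exact two-sided permutation or sign-flip tests, adjusted by Benjamini-Hochberg, with the library as the replicate. A peak not listed may still hold fewer than 6 reads. Peak reads per gene were tested with limma 3.58.1 in R 4.3.3 on log2(reads / size factor + 1), a scale that understates changes of low genes; merging and overlap used Python 3.11.15, numpy 2.4.6 and pandas 2.3.3. The merging, overlap and gene steps were checked on simulated data. The sites, lists and tests were chosen with earlier results of these data known. Sites were named by fixed rules: highest reads, hnRNPA1 peaks in all 4 libraries, SRSF1 peaks in most libraries, and the edge of the rule; genes by number of sites and lowest adjusted p in each direction; exon events by largest difference.

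Of 19362 gene IDs, 17814 matched the gene name table (16207 with a symbol) and 17914 matched GENCODE 29. Exon, intron and repeat annotation of the sites in hg19 was not used here, and no site sequence was read by coordinates. Same-numbered replicates were not paired. Sequences of 7SL-family copies are not reported here.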

Additional observations from a re-analysis of the deposited data

How the results depend on the processing

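The 34984 sites became 13690 with a minimum of 20 reads and 6893 with the minimum scaled to U2AF2 depth. Both settings merged the peaks anew, so sites whose control peaks fell under the minimum could enter. Leaving out 1 U2AF2 library gave 36087 to 49866, and the other settings stayed within 1.5 times. The 24 sites in 7SL-family genes ran between 6 (U2AF2 minimum scaled to depth) and 28. With the depth-scaled minimum for hnRNPA1 or SRSF1 peaks, chosen after seeing the data, directions turned for hnRNPA1 relative to common sites (0.0195), the SRSF1 share (-0.234), the SRSF1 read percent (-0.28), SRSF1 relative to common sites (-0.46) and the SRSF1 centre-to-flank ratio (-0.541). The SRSF1 read percent also turned without control replicate 2 (-0.124, highest 0.839). With a U2AF2 minimum of 20 reads the difference in hnRNPA1 share was -54.8 percentage points (-48.5 with the U2AF2 minimum scaled to depth), that in hnRNPA1 read percent -6.57 and that in SRSF1 read percent 1.19. The cause was not tested; other overlap results kept their direction.

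Genes called for hnRNPA1 numbered 1023, and 4791 (median log2 change -1.62) when a peak in 50% of the libraries sufficed; without 1 library they numbered 547 to 1677. For SRSF1 they numbered 125, 466 with the looser filter and 18 to 207 without 1 library. Under a replicate block 1088 hnRNPA1 and 111 SRSF1 genes were called; same-numbered libraries did not deviate together (correlation 0.0148 for hnRNPA1; -0.0135 to 0.00744 for SRSF1), so the numbers do not pair them. Peak minimums and unequal depth limit every overlap.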
